A study of Mus musculus with 6 samples.

Results

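The 50 genes described here encode proteins that build and run the mitotic spindle and the kinetochore, together with the proliferation antigen Mki67. They were chosen by gene symbol from a list of mitotic genes, with no threshold on their values but with earlier results of these data known. All 50 were found among the 16894 genes of the deposited table, in 8 groups by role. The table holds bulk RNA-seq of fibroadipogenic progenitors (FAPs), mesenchymal cells of the skeletal muscle interstitium that can become fibroblasts or adipocytes, with 3 control (non-senescent) and 3 senescent libraries. Cells of both groups came from C57BL/6 mice of 3 to 6 months, male and female, by magnetic sorting of CD45-, CD31-, α7-integrin-, SCA-1+ cells from leg muscle. Senescent FAPs were exposed to etoposide, a topoisomerase II poison that breaks DNA, at 20 μM for 48 h and then kept for 5 days in normal medium. The controls are described as non-senescent FAPs, with no treatment named. How the control dishes were passaged or how dense they were, and whether cells of several mice were pooled, is not given in the sources used here. The labels also do not say that replicates were separate cultures or animals, so p-values measure only the spread between these libraries, which may be technical.

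Libraries held 41412179 to 59912520 reads on genes. All 8 FAP and fibroblast markers examined were listed in the table, and summed to 16876 to 35413 CPM (read counts scaled to a common library size, the unit used throughout) in control and 10583 to 14885 CPM in senescent libraries, with 5 called higher and 1 lower. Pdgfra was at 126 to 238 CPM in control and 182 to 254 CPM in senescent libraries, Col1a1 at 9978 to 21130 and 2353 to 4073 CPM, and Lum was under 1 CPM in the controls. Leukocyte markers summed to 10.9 to 13.9 CPM in control and 26.5 to 32.2 CPM in senescent libraries, with Ptprc, Tyrobp and Adgre1 not listed. The 4 endothelial markers listed of 5 summed to 17.95 to 38.4 and 22.2 to 29.2 CPM, the 5 pericyte markers to 306 to 406 and 251 to 271 CPM, and the 2 myogenic markers listed of 6 to 14.3 to 19.3 and 23.4 to 30.2 CPM in control and senescent libraries, respectively. The part of these cells in the values below was not tested.

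In mitosis, cyclin-dependent kinase 1, Polo-like and Aurora kinases drive chromosome condensation and spindle assembly, and kinetochores on each centromere bind spindle microtubules. The spindle checkpoint holds the anaphase-promoting complex/cyclosome (APC/C) inactive until every kinetochore is attached, after which separase cuts cohesin and the central spindle directs cytokinesis. Most of these transcripts are made late in each cell cycle and are scarce in cells that do not divide, and stable growth arrest is a defining trait of senescent cells.

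The mitotic genes were lower in senescent FAPs almost without exception. At an adjusted p under 0.05 (limma, Benjamini-Hochberg over the 14776 genes tested), 49 of the 50 fell and 0 rose, beside 24.3% of all genes tested that were lower and 21.8% that were higher. At an unadjusted p under 0.05, 0 members were higher in limma, in edgeR's quasi-likelihood test or in DESeq2, and 0 had a log2 fold change above 0 in any of the 18 fits run. Their median log2 fold change, on the log2(CPM + 0.5) scale, was −2.49, against −0.03 over all genes tested, and the middle 90% of all genes ran from −0.90 to 1.20. The median member kept 14.6% of its control mean, and 40 members kept less than 25% of it. In 44 members the log2 fold change was under −1 with an unadjusted p under 0.01, a limit that 3.9% of all genes passed. All 3 senescent libraries lay below all 3 control libraries in 49 members, as they did in 30.9% of all genes. Of the 50 genes of the whole table with the most negative log2 fold change, 19 were members, and 42 members stood among the first 200. Scaled by library totals alone, the median over all genes moved from −0.03 to 0.17 and the table gave 1933 lower and 5056 higher genes in place of 3592 and 3218, while 47 members were called lower. In bulk RNA, fewer cells expressing these genes and less of their RNA per cell cannot be told apart.

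**Figure D1:**
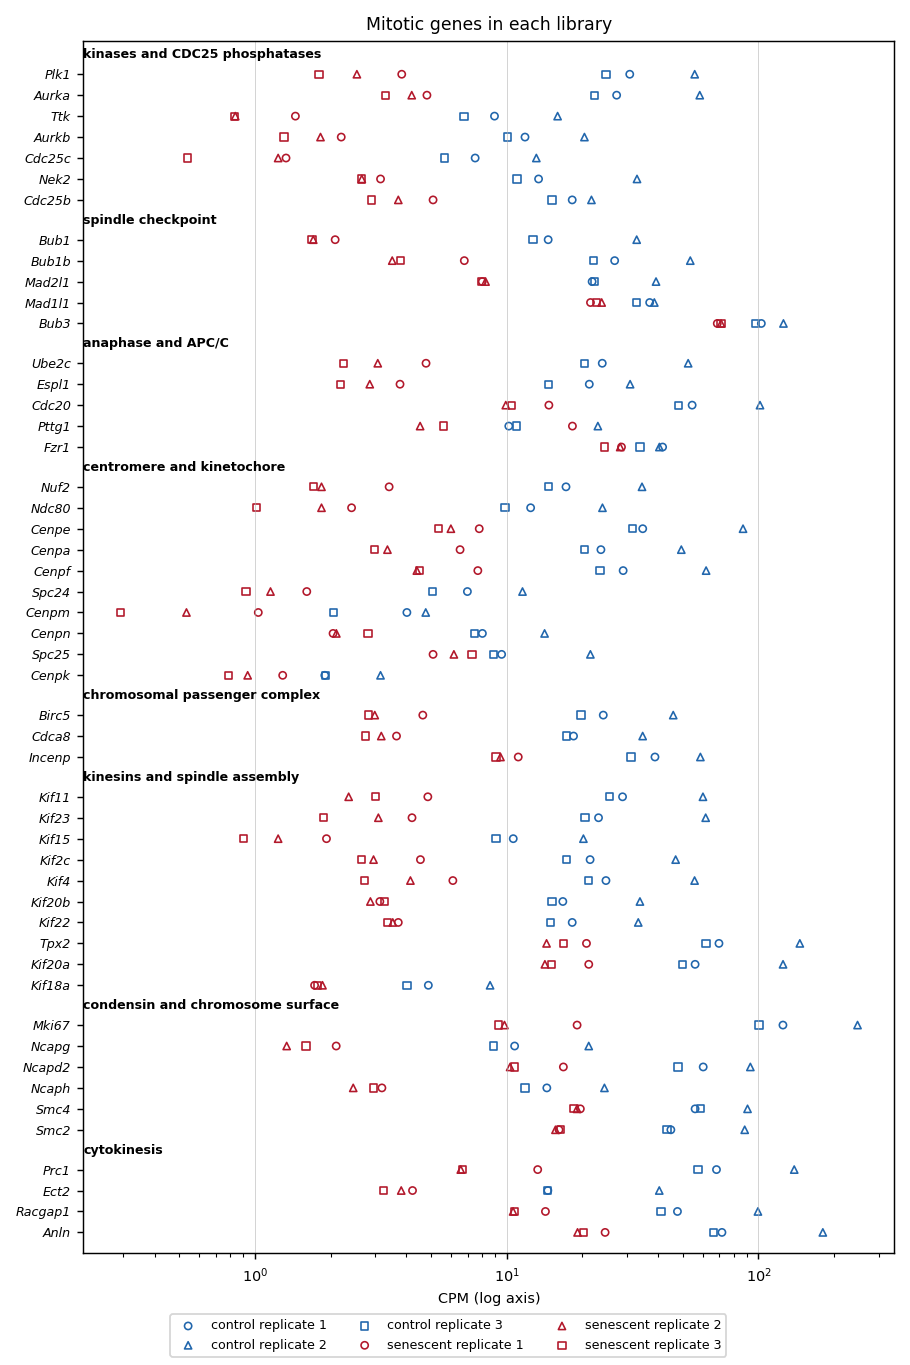
CPM of each of the 50 mitotic genes in each library, on a log axis, grouped by role. Blue symbols are the 3 control libraries and red symbols the 3 senescent libraries. In 49 genes every red symbol lies left of every blue one, and Pttg1 is the exception.

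Mki67, which coats mitotic chromosomes and is a standard marker of cycling cells, had the most negative log2 fold change of all members. It had 125, 247 and 100.54 CPM in the control libraries and 19.0, 9.80 and 9.27 CPM in the senescent ones. The groups did not overlap, and the highest senescent library was the first. Its log2 fold change was −3.55 ± 0.37 (SE; limma adjusted p = 0.000445). Plk1, the Polo-like kinase needed for mitotic entry and bipolar spindles, had 30.8, 55.8 and 24.8 CPM in control and 3.83, 2.54 and 1.80 CPM in senescent libraries. It kept 7.34% of its control mean, the smallest share of any member, with a log2 fold change of −3.51 ± 0.33 (adjusted p = 0.000333). At the other end, Fzr1 and Bub3 kept 70.1% and 64.7% of their control means.

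The promoters of these 4 genes, the members with the most and the least negative log2 fold changes that had an entry on a chromosome shown here, are given from RefSeq (GRCm38.p6) as 250 bases before to 50 bases after the annotated start, on the strand of the gene. Capitals mark the cell cycle genes homology region (CHR, TTTGAA, or its variant TTCGAA) and the CCAAT box, each on either strand, so that TTCAAA and ATTGG are reverse-strand matches. The CHR is known as a binding element of the MuvB complexes that repress and activate late cell cycle genes, and the CCAAT box as that of NF-Y. Mki67 lies at chr7:135716330-135716629 (minus strand), Plk1 at chr7:122159185-122159484 (plus), Bub3 at chr7:131560120-131560419 (plus, the first of 2 windows) and Fzr1 at chr10:81378321-81378620 (minus).
Mki67: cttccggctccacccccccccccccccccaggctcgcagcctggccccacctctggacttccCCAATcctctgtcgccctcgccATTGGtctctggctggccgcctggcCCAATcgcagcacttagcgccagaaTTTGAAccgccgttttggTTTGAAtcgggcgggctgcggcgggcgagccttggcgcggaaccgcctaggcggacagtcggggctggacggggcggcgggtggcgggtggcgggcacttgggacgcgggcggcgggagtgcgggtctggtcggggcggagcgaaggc
Plk1: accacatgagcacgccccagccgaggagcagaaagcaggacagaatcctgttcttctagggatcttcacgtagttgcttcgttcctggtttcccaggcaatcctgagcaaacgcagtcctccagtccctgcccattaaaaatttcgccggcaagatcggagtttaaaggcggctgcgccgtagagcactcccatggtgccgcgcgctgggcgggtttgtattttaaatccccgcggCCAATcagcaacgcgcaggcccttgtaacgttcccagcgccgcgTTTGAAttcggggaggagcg
Bub3: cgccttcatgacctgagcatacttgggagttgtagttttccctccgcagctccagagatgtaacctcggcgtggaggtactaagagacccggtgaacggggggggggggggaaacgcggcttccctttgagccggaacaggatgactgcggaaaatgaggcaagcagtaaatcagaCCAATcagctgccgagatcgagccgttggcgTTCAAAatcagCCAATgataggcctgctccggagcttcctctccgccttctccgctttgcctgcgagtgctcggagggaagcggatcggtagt
Fzr1: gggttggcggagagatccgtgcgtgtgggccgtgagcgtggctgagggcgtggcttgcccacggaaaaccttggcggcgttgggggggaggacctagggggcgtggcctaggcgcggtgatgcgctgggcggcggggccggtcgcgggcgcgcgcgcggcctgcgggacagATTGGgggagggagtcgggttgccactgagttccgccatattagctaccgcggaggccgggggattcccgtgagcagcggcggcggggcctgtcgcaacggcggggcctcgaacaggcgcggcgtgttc

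Plk1 carried 1 CHR at position 31 after the start, and Mki67 carried 2, at −116 and −98. Bub3, among the least changed members, also carried a CHR, at −43, while Fzr1 held a CCAAT box and the E2F core GCGGGA but no CHR. Promoters were matched for 43 of the 50 members, and Kif20a, Incenp, Cdc25c, Smc4, Spc24, Tpx2 and Aurkb had no entry. Shares are given beside those of all 27025 genes of the RefSeq table and of the 10131 of 14776 genes tested here that had an entry. TTTGAA was present in 29 of the 43 (67.4%), against 20.2% of the table and 14.1% of the genes tested, and TTCGAA in 4 (9.3%) against 1.8% and 2.45%. CCAAT was present in 31 (72.1%) against 41.1% and 43.0%. GCGGGA, the core of an E2F site, was present in 23 (53.5%) against 22.0% of the table but 39.8% of the genes tested. Matches were counted on both strands and may share letters with one another. Either CHR form together with a CCAAT box occurred in 27 of the 43 (62.8%), in 8.61% of the table and in 6.79% of the genes tested. A CHR within 50 bases of the start occurred in 28 (65.1%), in 6.12% of the table and in 4.31% of the genes tested. The 32 members with a CHR had a median log2 fold change of −2.66 (−3.55 to −0.62) and the 11 without one −1.67 (−2.95 to −0.50), so that the ranges overlapped widely. These are letter matches, given as a description.

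**Figure D2:**
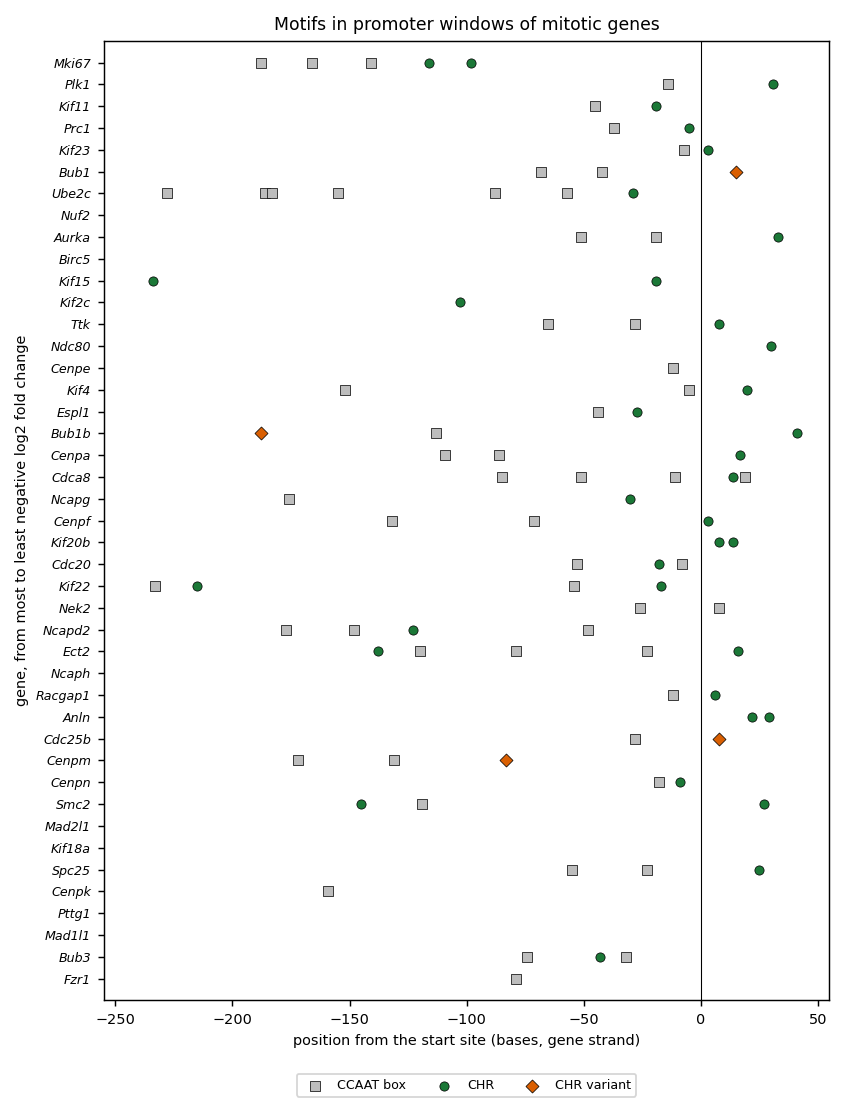
Positions of CCAAT boxes (grey squares), CHR (green circles) and CHR variants (orange diamonds) in the RefSeq promoter windows of 43 mitotic genes (the window with the lowest coordinates where a gene has several), in bases from the annotated start on the gene strand, ordered by log2 fold change. Most CHR matches lie within 50 bases of the start.

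Among the kinases and CDC25 phosphatases, all 7 members fell, with a median log2 fold change of −2.63 and senescent means at 7.34% to 21.3% of control. Plk1 led this group, followed by Aurka, which acts at spindle poles (−2.87), and the checkpoint kinase Ttk (−2.78). Aurkb, the kinase of the chromosomal passenger complex (−2.63), Cdc25c, an activator of cyclin-dependent kinase 1 (−2.55), and the centrosomal kinase Nek2 (−2.40) came next. Cdc25b, a phosphatase that activates cyclin-dependent kinase 1 at mitotic entry, fell least. Its control libraries held 18.2, 21.7 and 15.2 CPM and its senescent libraries 5.10, 3.71 and 2.90 CPM. The groups were well apart, with a log2 fold change of −2.11 ± 0.21 (adjusted p = 0.000395).

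The 5 checkpoint genes all passed the test but spread more widely. Bub1, the kinase that recruits checkpoint proteins to kinetochores, read 14.6, 32.8 and 12.7 CPM in control and 2.08, 1.71 and 1.69 CPM in senescent libraries. That is a log2 fold change of −3.02 ± 0.33 (adjusted p = 0.000503). Its binding partner Bub3 read 103, 126 and 97.2 CPM in control and 68.6, 71.0 and 70.9 CPM in senescent libraries, where the 3 values lay close together. Its log2 fold change was −0.62 ± 0.10 (adjusted p = 0.00261), still with no overlap between groups. Bub1b, a part of the mitotic checkpoint complex, was close to Bub1 (−2.69), Mad2l1, which binds and inhibits Cdc20, lay in between (−1.67), and Mad1l1, which anchors Mad2l1 at kinetochores, was close to Bub3 (−0.65).

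In the group of anaphase and the APC/C, 4 of 5 members fell. Ube2c, the ubiquitin-conjugating enzyme of the APC/C, had 24.0, 52.6 and 20.4 CPM in control and 4.79, 3.08 and 2.25 CPM in senescent libraries (log2 fold change −3.01 ± 0.37, adjusted p = 0.000838). The separase gene Espl1 (−2.69) and the mitotic APC/C activator Cdc20 (−2.43) fell to a similar extent. Fzr1, the activator that takes over from Cdc20 at the end of mitosis and in G1, had 41.6, 40.4 and 33.8 CPM in control and 28.6, 28.2 and 24.4 CPM in senescent libraries. The groups did not overlap, but the difference was small, at −0.50 ± 0.11 (adjusted p = 0.00837). With division by library totals alone it was −0.29 with an adjusted p of 0.0610.

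Pttg1, which encodes securin, the inhibitor of separase, was the one member that did not pass the test. It read 10.2, 23.0 and 10.9 CPM in control libraries and 18.2, 4.53 and 5.63 CPM in senescent ones. Senescent replicate 1 lay above 2 of the controls, while the other senescent libraries lay below all of them. The log2 fold change was −0.77 ± 0.51 (adjusted p = 0.250), and without senescent replicate 1 it was −1.36 (adjusted p = 0.0221).

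All 10 centromere and kinetochore genes fell, with a median log2 fold change of −2.41. Nuf2, a subunit of the NDC80 complex that grips microtubules, had 17.2, 34.5 and 14.7 CPM in control and 3.42, 1.84 and 1.71 CPM in senescent libraries (−2.95 ± 0.35, adjusted p = 0.000674). Ndc80 itself (−2.77), the motor Cenpe (−2.76), the centromeric histone H3 variant Cenpa (−2.68) and the fibrous corona protein Cenpf (−2.59) had similar values. Spc24, of the NDC80 complex (−2.22), and the inner kinetochore subunits Cenpm (−1.86) and Cenpn (−1.83) followed. The added 0.5 CPM shrinks the values of scarce genes, and edgeR on recovered reads gave −2.50 for Cenpm and −2.06 for Cenpn. Cenpk, another subunit of the inner kinetochore network, had the least negative value on the log2(CPM + 0.5) scale. It had only 35 to 65 reads in the senescent libraries and kept 43.3% of its control mean. By that share Spc25, at 46.5%, was the least changed of the 10. Cenpk read 1.90, 3.16 and 1.90 CPM in control and 1.29, 0.937 and 0.788 CPM in senescent libraries. Its log2 fold change of −0.89 ± 0.22 (adjusted p = 0.0143) missed the threshold without senescent replicate 2 (adjusted p = 0.0528) or replicate 3 (0.0567).

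Spc25 had the smallest decrease of the 4 subunits of the NDC80 complex. It read 9.55, 21.5 and 8.87 CPM in control and 5.10, 6.17 and 7.29 CPM in senescent libraries, and the highest senescent library came near the lowest control. The log2 fold change was −0.94 ± 0.32, just past the threshold (adjusted p = 0.0436). Spc25 missed the threshold without any 1 of the senescent libraries (adjusted p = 0.0762 to 0.118). It also missed it with library totals alone (0.0949) and in limma with no variance trend (0.0577). The ratio of Spc25 to Nuf2 was 0.555 to 0.624 in control and 1.49 to 4.26 in senescent libraries, and that of Spc24 to Nuf2 0.335 to 0.406 and 0.471 to 0.627. The ratio of Ndc80 to Nuf2 overlapped between the groups (0.672 to 0.724 and 0.592 to 1.00). Such ratios of CPM also reflect transcript length, so that they were compared between libraries only.

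Uneven decreases were also seen in other sets of partners, which, like Spc25 and Nuf2, were picked after the values had been seen and were not tested. Pttg1 over Espl1 was 0.479 to 0.745 in control and 1.58 to 4.84 in senescent libraries. Fzr1 over Cdc20, the pair of APC/C activators, was 0.399 to 0.763 in control and 1.94 to 2.85 in senescent libraries, and Bub3 over Bub1 was 3.83 to 7.64 and 32.9 to 42.0. Of the 11 such ratios computed, Ndc80 over Nuf2 and Smc2 over Smc4 overlapped between the groups and the others did not. No share was computed for pairs of other genes, so the number without overlap is not read as a trait of partners. Smc2 over Smc4, the heterodimer of condensin, was at 0.739 to 0.974 in control and 0.821 to 0.886 in senescent libraries.

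The 3 other genes of the chromosomal passenger complex all fell. Birc5 (survivin), which brings the complex to centromeres, had 24.2, 45.9 and 19.7 CPM in control and 4.65, 2.99 and 2.84 CPM in senescent libraries (−2.86 ± 0.31, adjusted p = 0.000530). Cdca8 (borealin) had a log2 fold change of −2.63. The scaffold Incenp had 38.8, 58.8 and 31.1 CPM in control and 11.1, 9.45 and 9.07 CPM in senescent libraries, a smaller but well separated difference of −2.02 ± 0.22 (adjusted p = 0.000491).

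Kinesins and the spindle assembly factor Tpx2 also all fell, 10 of 10, with a median log2 fold change of −2.65. Kif11, the motor that pushes spindle poles apart, had 28.9, 60.2 and 25.7 CPM in control and 4.86, 2.36 and 3.02 CPM in senescent libraries (−3.25 ± 0.35, adjusted p = 0.000489). Kif15, a motor that can stand in for Kif11 (−2.85), Kif23, which bundles central spindle microtubules (−3.20), the microtubule depolymerase Kif2c (−2.80), the chromokinesin Kif4 (−2.76) and Kif20b, a kinesin of cytokinesis (−2.54), followed. Kif22, another chromokinesin (−2.40), Tpx2 (−2.29) and Kif20a (−2.06), motor of the central spindle, changed somewhat less. Kif18a, which dampens chromosome movements at the metaphase plate, had 4.89, 8.59 and 4.02 CPM in control and 1.73, 1.86 and 1.78 CPM in senescent libraries. Its decrease was the smallest of the group, at −1.40 ± 0.25 (adjusted p = 0.00376).

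Condensin I, which compacts mitotic chromosomes, fell in all 5 subunits listed, but not equally. The subunits Ncapg (−2.61), Ncapd2 (−2.34) and Ncaph (−2.31) changed more than the ATPases Smc4 (−1.78) and Smc2, which are shared with condensin II. Smc2 had 44.9, 88.2 and 43.4 CPM in control and 16.1, 15.6 and 16.4 CPM in senescent libraries, and the 3 senescent values were nearly alike. Its log2 fold change was −1.76 ± 0.25 (adjusted p = 0.00140).

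All 4 genes of cytokinesis fell. Prc1, which bundles the microtubules of the central spindle, had 68.1, 139 and 57.6 CPM in control and 13.3, 6.58 and 6.68 CPM in senescent libraries (−3.21 ± 0.37, adjusted p = 0.000633). Ect2, the exchange factor that activates RhoA at the cleavage furrow (−2.31), and its partner Racgap1 (−2.25) followed. Anln, the furrow scaffold anillin, had 71.6, 180 and 66.5 CPM in control and 24.6, 19.1 and 20.2 CPM in senescent libraries. The gap between the groups remained wide, with a log2 fold change of −2.14 ± 0.35 (adjusted p = 0.00245).

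**Figure D3:**
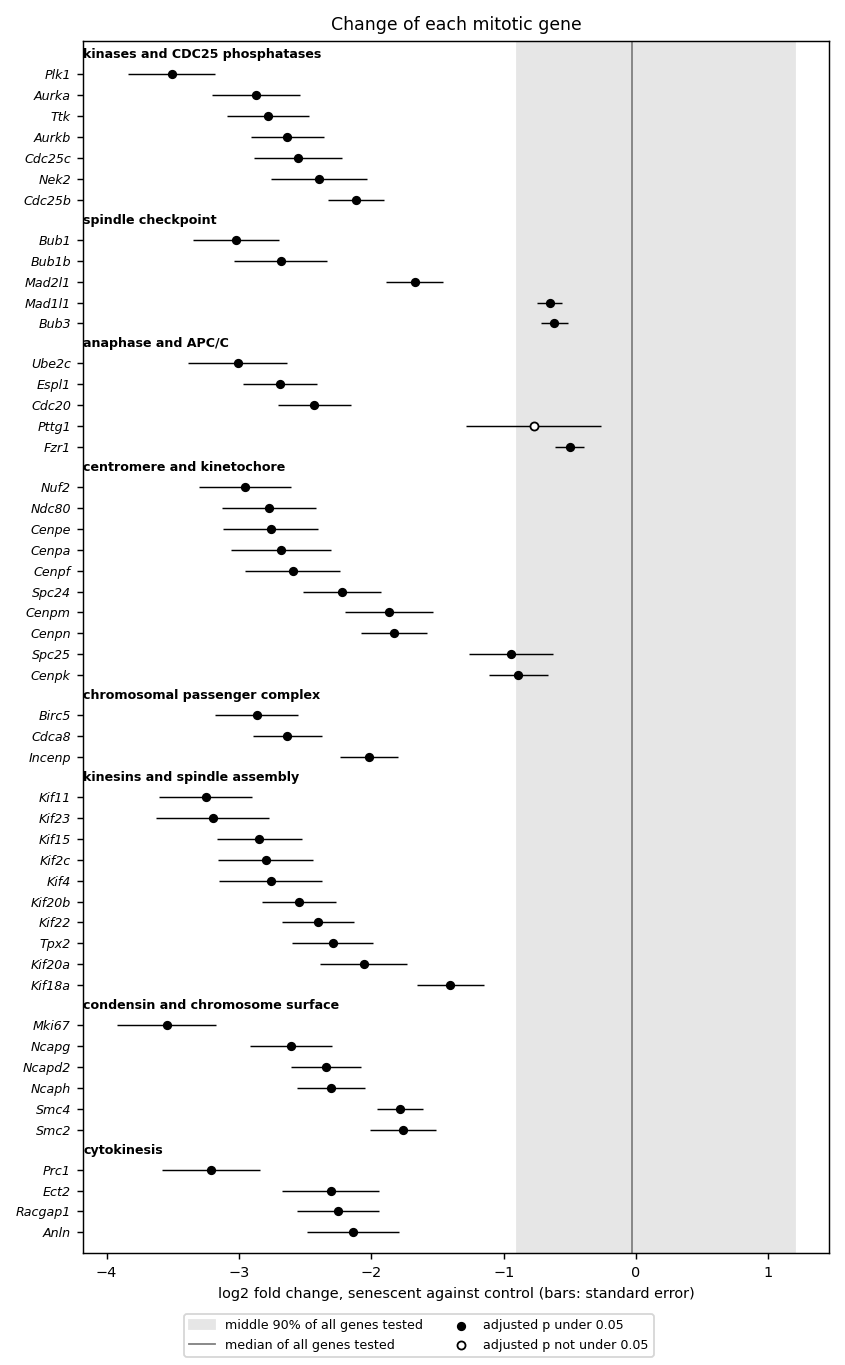
Log2 fold change of each mitotic gene between senescent and control FAPs, with bars of 1 standard error, grouped by role. The grey band is the middle 90% of all genes tested (−0.90 to 1.20) and the grey line their median (−0.03). Filled points pass the adjusted p of 0.05 and Pttg1 is open. Mad1l1, Bub3, Pttg1, Fzr1 and Cenpk lie within the band.

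The control libraries differed among themselves in these genes. Control replicate 2 was the highest control in 49 of the 50 members, against 38.9% of all genes tested. Control replicate 3 was the lowest in 46, against 26.2% of all genes. Over the members, the level in control replicate 2 was a median of 2.11 times the mean of the other controls, against 0.996 over all genes, and it was more than 1.5 times that mean in 46 members and in 8.6% of all genes. The summed level of the 50 genes was 1489, 2822 and 1294 CPM in the control libraries and 463, 367 and 359 CPM in the senescent ones. Even the lowest control sum was thus far above the highest senescent one. Of the 8 FAP and fibroblast markers, none of them a member, control replicate 2 was the lowest control in 5 and the highest in 1. Over all genes tested it was lowest in 38.9% and highest in 38.9%, and 8 markers are few for such a comparison. Without control replicate 2 the median log2 fold change of the members was −2.14 and 49 were still called lower. In the senescent group, replicate 1 was highest in 42 members (84.0%, against 38.3% of all genes), by a median of 1.45 times the mean of the other senescent libraries.

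**Figure D4:**
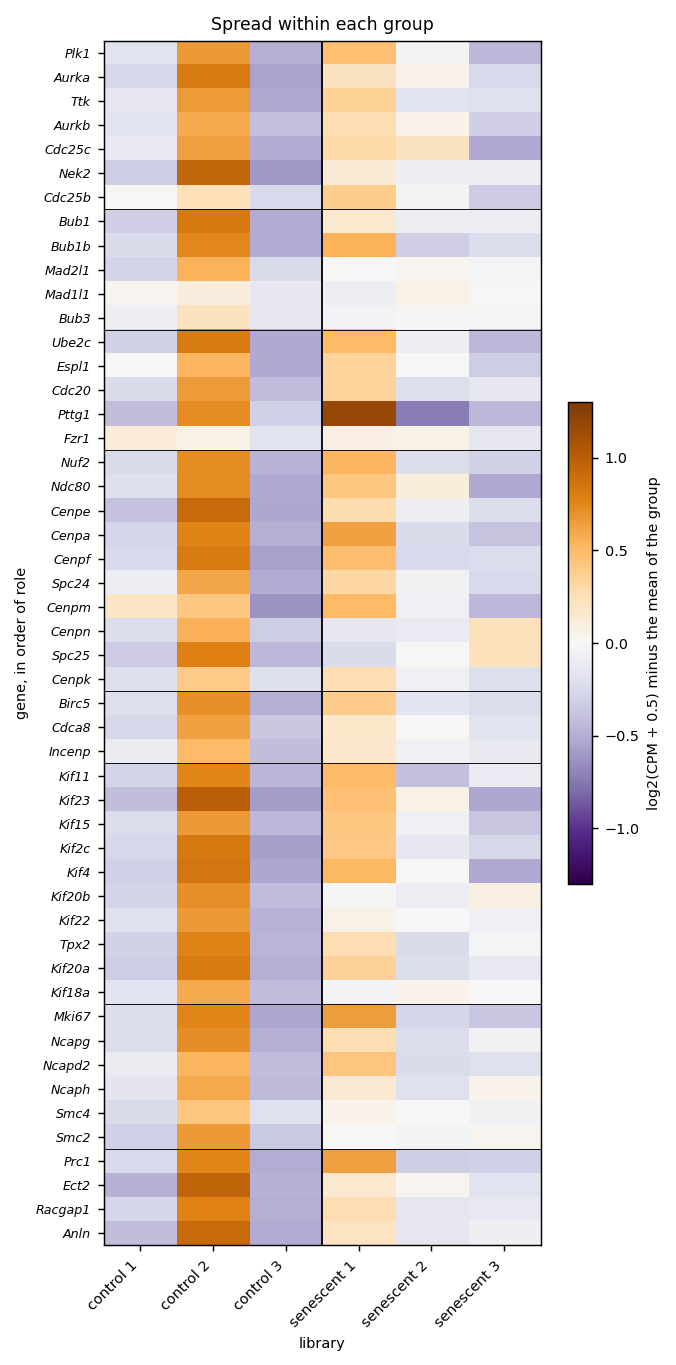
Deviation of each mitotic gene from the mean of its own group, in log2(CPM + 0.5), for each library. Orange is above and purple below the group mean. Control replicate 2 is orange in nearly every gene and control replicate 3 purple, and senescent replicate 1 is orange in most.

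Other genes of mitosis were examined from a list of 125 genes in 10 complexes, written from general knowledge but with earlier results of these data known. Of these, 121 were listed by symbol and all were tested. At an adjusted p under 0.05, 85 were lower, 3 were higher and 33 did not pass. Of all genes tested, 24.3% were lower and 21.8% higher, which also applies to the counts by complex below. The median log2 fold change of the 121 was −0.73. Control replicate 2 was the highest control in 99 of them, against 38.9% of all genes tested. Cyclin B1, Ccnb1, the partner of cyclin-dependent kinase 1, had a log2 fold change of −3.35 and the spindle gene Ckap2l −3.04.

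Among the regulators of mitotic transcription 5 of 7 were lower, and the median log2 fold change of the 7 was −0.47. Foxm1, a transcription factor that activates such genes, had the smallest p, with 45.3, 80.4 and 35.2 CPM in control and 12.9, 9.87 and 7.94 CPM in senescent libraries (−2.27 ± 0.30, adjusted p = 0.00105). Mybl2 (B-MYB) had a value of −1.90. Of the MuvB genes listed, Lin9 (−0.85), Lin54 (−0.47) and Rbbp4 (−0.38) were lower, while Lin37 (0.09) and Lin52 (0.41) did not pass. Entry and cyclin-dependent kinase control had 8 of 11 lower, with the smallest p for Cks1b (−1.25, adjusted p = 0.000233). The constitutive centromere network and its loading factors had 12 of 16 lower, led by Hjurp, the chaperone that deposits Cenpa. Hjurp had 208, 204 and 180 CPM in control and 77.0, 66.1 and 61.9 CPM in senescent libraries (−1.52 ± 0.10, adjusted p = 0.000131). Its control replicate 2 was 1.05 times the mean of the other controls.

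In the MIS12 complex with KNL1, 5 of 6 were lower, with the smallest p for Pmf1 (−1.92) and the most negative value for Casc5, the KNL1 gene (−2.74). Cohesin and its protectors had 9 of 14 lower, with the smallest p for the acetyltransferase Esco2 (−2.07). All 3 genes specific to condensin II were lower, from −2.67 for Ncapg2 to −0.50. The APC/C subunits and inhibitor had 10 of 16 lower, and the median of the 16 was −0.31. The called decreases ran from −0.22 for the subunit Cdc23 to −2.47 for the inhibitor Fbxo5. The subunit Anapc5 had the smallest p (−0.75). Spindle and centrosome genes had 22 of 28 lower, with the smallest p for the centriole kinase Plk4 (−2.25). In the abscission and contractile ring list Cep55 (−2.69) and Cit (−1.48) of 9 were lower, near the 24.3% of all genes tested. The median of that list was −0.03, the same as over all genes.

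In the corona and SKA list, where 9 of 11 were lower, the smallest p belonged to a gene that rose. Clip1, a protein that tracks growing microtubule ends in interphase and at kinetochores, had 66.9, 65.7 and 79.4 CPM in control and 128, 131 and 139 CPM in senescent libraries (0.91 ± 0.09, adjusted p = 0.000382). Zwint, a KNL1-bound kinetochore protein, had 135, 181 and 154 CPM in control and 193, 220 and 219 CPM in senescent libraries. Its groups did not overlap (0.43 ± 0.11, adjusted p = 0.0179), but it missed the threshold without control replicate 3 (adjusted p = 0.0536), senescent replicate 2 (0.0708) or senescent replicate 3 (0.0664). Ensa, an inhibitor of the phosphatase PP2A-B55 in mitosis, rose by 0.28 ± 0.08 (adjusted p = 0.0273), with 123, 122 and 128 CPM in control and 139, 149 and 166 CPM in senescent libraries. It missed the threshold without control replicate 1 (adjusted p = 0.0652) or 3 (0.0584) and without senescent replicate 2 (0.0783) or 3 (0.0817). Clip1 remained called without any 1 library (adjusted p up to 0.00391). With the replicate number as a block, 5 of the listed genes were higher instead of 3, and with library totals alone 16 were. The count of listed genes that were lower was 67 with library totals alone and 76 without senescent replicate 2, in place of 85.

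**Figure D5:**
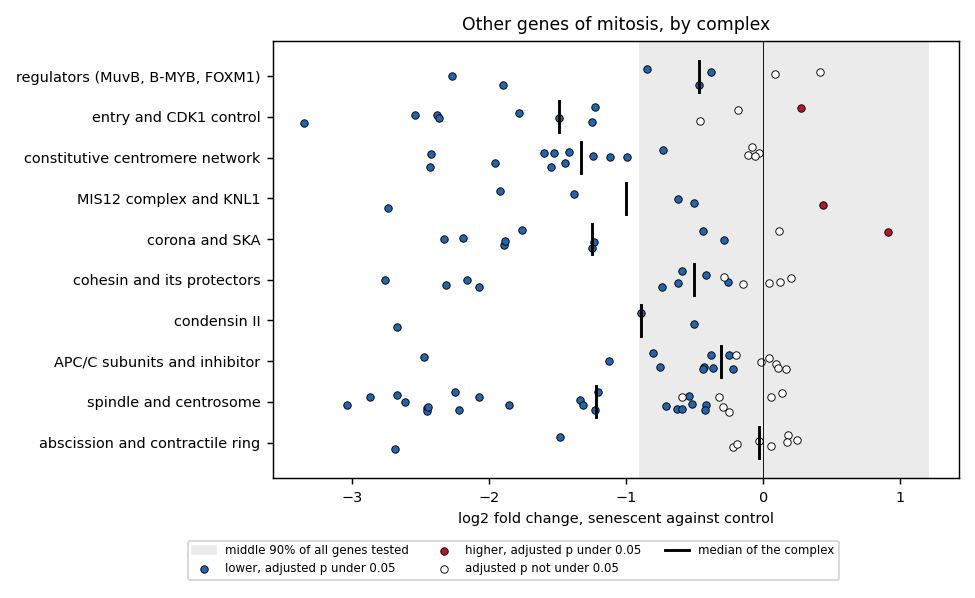
Log2 fold change of 121 other genes of mitosis between senescent and control FAPs, by complex. Blue points were lower and red points higher at an adjusted p under 0.05, open points did not pass, black bars are medians and the grey band is the middle 90% of all genes tested. Medians range from −1.49 for mitotic entry to −0.03 for abscission.

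Some values have a limit in what was counted. The library kit marks strand, but whether counting used it is not stated, and 16 members share exon bases with a gene on the opposite strand in GENCODE M21. The longest such stretch was 1271 of 4338 bases in Kif20a, shared with the APC/C subunit Cdc23, which stood at 61.8 to 66.1 CPM in control and 53.9 to 55.2 CPM in senescent libraries. Its part in the reads given to Kif20a was not tested. Transcripts of Bub3, Cdc20, Kif2c, Mad2l1, Plk1, Racgap1 and Ube2c have copies elsewhere with at least 90% identity, none of which is listed in the table. In 2 members, Cdc25c and Cenpm, fewer than 30 reads were counted in some library.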

How the data were processed

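Stranded mRNA libraries (TruSeq) of 3 control and 3 senescent FAP samples were sequenced, and the authors deposited 1 table of edgeR CPM values. The authors scaled this signal with per-library factors, so that the deposited columns sum to between 919819 and 1090570. The submitters' processing notes name edgeR 3.10, R 3.6.0 and mm10, and the aligner, counter, annotation and use of strand are not given in the sources used here. All 6 columns were mapped to samples by name, and 0 columns were left unmapped.

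Dividing each column by its step between low values gave whole reads for 100% of entries (tolerance 0.05 of a read) and a depth of 41412179 to 59912520 reads per library. The deposited values correspond to library sizes scaled by 0.917 to 0.940 in the control and by 1.07 to 1.09 in the senescent libraries. The factors thus did not overlap between the groups. Of 16895 lines, 1 named no gene (0.00409 to 0.00699% of reads) and was left out. A gene was tested where 3 or more libraries reached 0.5 CPM, with limma 3.58.1 in R 4.3.3 (moderated test with a variance trend on log2(CPM + 0.5), two-sided) and adjusted by Benjamini-Hochberg over all 14776. Scripts were tested on simulated data. Alternatives were another pseudocount, filter, scaling or variance prior, the replicate number as a block, each library left out, and a count test of the whole reads (edgeR 4.0.16, quasi-likelihood, and DESeq2 1.42.0).

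Same-numbered control and senescent libraries deviated together from their group means (r across genes 0.537, 0.308 and 0.207). Control replicate 2 with senescent replicate 3 gave 0.153, and the remaining unlike-numbered pairs were negative. The main fit did not pair the libraries. The replicate number entered only as a block in an alternative fit, since the labels do not say what it stands for.

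In each role the members with the most and the least negative log2 fold change are given in every library, with Mki67, Plk1 and any member not called. Among the other mitotic genes, those with the smallest p in each complex and those higher are named. Spc25, the sets of partners, and the further genes named with a log2 fold change only, were added after their values were seen. Positions and exon overlaps came from GENCODE M21 and similar transcripts from minimap2 2.31. The members and lists were chosen with earlier results of these data known. The symbols Aurkc, Sept2, Sept7 and Sept9 found no line and were not used.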

Additional observations from a re-analysis of the deposited data

How the results depend on the processing

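Over all alternatives, 47 to 49 members were lower and 0 were higher, 44 to 46 passed the limits of fold and p, and their median log2 fold change ran from −2.14 to −2.75. Of the single member values, 840 kept their direction and side of the threshold, 8 lost the call (Spc25, Cenpk and Fzr1), 1 gained it (Pttg1 without senescent replicate 1) and 0 reversed. With the replicate block, 49 members were lower as without it, and the count of other mitotic genes that were higher rose from 3 to 5, which was the one count it moved by more than 1.5 times. That count was also 5 with median-of-ratios size factors, 5 in DESeq2, 7 with quantile normalization and 16 with library totals alone, and 1 to 3 when 1 library was left out (1 without senescent replicate 2 or 3). Library totals alone gave 1933 genes lower and 5056 higher over the whole table, and leaving out 1 library gave 2416 to 3875 lower and 2130 to 3405 higher, the lowest of each without senescent replicate 2. The cause was not tested. The edgeR quasi-likelihood test on recovered reads called 3307 genes lower and 3261 higher. A filter at 2 CPM left 49 members to test, of which 48 were lower.

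Depth limits the scarcest members. Cenpm had as few as 13 reads in a senescent library and Cdc25c 24, so their senescent levels carry counting error beside the spread between libraries. With 3 libraries a group, single libraries were not tested as outliers. How far the control cultures were from confluence is not given, so exposure to etoposide and other differences in culture between the groups cannot be told apart.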
